A study of Mus musculus with 12 samples.

Results

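Schwann cells, which wrap the axons of peripheral nerves, build myelin from a small set of structural proteins, and the RNA of 8 genes for such proteins was followed here in mouse sciatic nerve. The genes were taken by name, with no cut on their values but with earlier results of these data known: *Pmp22*, *Mbp*, *Mag*, *Prx*, *Pmp2*, *Cnp*, *Mal* and *Gjb1*. They are 8 of the 43432 genes in the count table, and each was matched to 1 Ensembl gene. RNA-seq was performed on whole sciatic nerves of mice at postnatal day 30, labelled 1 month, in 3 groups of 4 libraries. Control mice had the genotype *Mtmr2* wt/wt, and the Mtmr2 null mice had the genotype *Mtmr2* -/-, both with the treatment labelled none. The study's text calls the null mice without niacin vehicle treated. The Mtmr2 null niacin mice had the same *Mtmr2* -/- genotype and were given niacin, injected into the peritoneum at 120 mg/kg between day 10 and day 21 and followed by a slow-release form by gavage to day 30. There was no group of control mice with niacin, so an effect of niacin in nerves with *Mtmr2* cannot be seen in these data. The labels name no Cre driver that would limit the deletion to Schwann cells. Each library came from 1 nerve of 1 mouse, and libraries are named by the numbers of their labels.

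In compact myelin the membrane layers are pressed together. The peripheral membrane protein MBP holds their cytoplasmic faces close, the tetraspan proteins PMP22 and MAL lie in the membrane, and PMP2 is a lipid-binding protein between the layers. Non-compact myelin keeps cytoplasm. Here MAG faces the axon, the gap junction protein connexin 32, encoded by *Gjb1*, joins the turns of the spiral, CNP is an enzyme of the cytoplasmic channels, and periaxin, encoded by *Prx*, links the outer membrane of the Schwann cell to dystroglycan. *PMP22*, *GJB1*, *PRX* and *PMP2* are genes of human Charcot-Marie-Tooth neuropathy, and loss of *MTMR2*, a phosphoinositide phosphatase, causes the form CMT4B1, in which myelin folds outward.

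Totals per library ranged from 20763951 to 33191106 counts, and differences were tested by edgeR's quasi-likelihood test on the counts of all 17257 genes that passed its filter on low counts, with a call at a Benjamini-Hochberg adjusted p under 0.05. All 8 genes passed this filter. Levels are CPM, counts scaled to a library of 1000000 after TMM scaling, a correction for differences in RNA composition. *Mtmr2* itself was at 128 to 161 CPM in control and at 66.8 to 73.5 CPM in niacin-treated nerves. In the libraries labelled Mtmr2 null it was at 71.6, 84.7 and 69.5 CPM in 4501, 4502 and 4504, and at 143 CPM in 4503, within the range of control. Library 4502 stood apart in another way. With genes in 5 classes of GC content, the class highest in GC differed by −0.89 on the log2 scale from the lowest, relative to control, and 7.0% of its counts were mitochondrial RNA. The same GC difference was between −0.66 and −0.35 in the 4 niacin libraries and between −0.10 and 0.05 in all others, and mitochondrial RNA was 3.5% to 5.43% in the niacin libraries and 2.09% to 2.80% in the others. Of the cell type markers, the 8 skeletal muscle genes summed to 25.8 to 71.2 CPM in control and Mtmr2 null. Among niacin-treated nerves they summed to 74.0 and 89.4 CPM in 4505 and 4508, and to 3052 and 2992 CPM in 4506 and 4507. The 8 adipocyte genes summed to 3999 to 5178 CPM in control, to 2954, 7580, 2073 and 1080 CPM in Mtmr2 null libraries 4501 to 4504 and to 3673 to 7134 CPM in niacin-treated nerves, and edgeR called 2 of them lower in Mtmr2 null than in control and 1 higher in niacin-treated than in Mtmr2 null nerves. In the last comparison it also called 4 skeletal muscle genes higher and 1 oligodendrocyte gene lower. The 7 oligodendrocyte genes, none of which was at 0, summed to 9.50 to 36.1 CPM, led by *Mobp*, against 3682 to 6902 CPM for the 7 pan-Schwann cell genes. The part of these marker levels in the results was not tested.

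Together the 8 genes took 6.25% ± 0.397 of all counts in control, 7.14% ± 0.215 in Mtmr2 null and 6.59% ± 0.836 in niacin-treated nerves (SD, n = 4 each). Library by library their share was 5.67% to 6.55% in control and 6.84% to 7.30% in Mtmr2 null, so these groups did not overlap, while the niacin libraries ran from 5.83% to 7.74% and overlapped both. *Pmp22* and *Mbp* were the largest terms of this sum. Levels of different genes were compared per kilobase of annotated exons, in CPM per kb. In control nerves *Pmp22* was highest at 11079 ± 1017 CPM per kb, followed by *Mbp* at 2877 ± 269, *Mal* at 1103 ± 118, *Prx* at 1057 ± 96.6 and *Cnp* at 530 ± 54.3 (SD, n = 4 each). *Gjb1* was at 85.5 ± 2.51, *Mag* at 72.9 ± 8.34 and *Pmp2* at 5.90 ± 1.57 CPM per kb (SD, n = 4 each). The ranges of *Mal* and *Prx* overlapped, as did those of *Gjb1* and *Mag*, and all other neighbours in this order were separate. Per kilobase of the longest transcript, *Mag* came before *Gjb1* in control, at 122 against 92.0 CPM per kb, and the rest of the order was the same. In Mtmr2 null nerves *Prx* and *Cnp* overlapped as well, and in niacin-treated nerves *Mag* stood before *Gjb1*, with overlapping ranges.

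**Figure D1:**
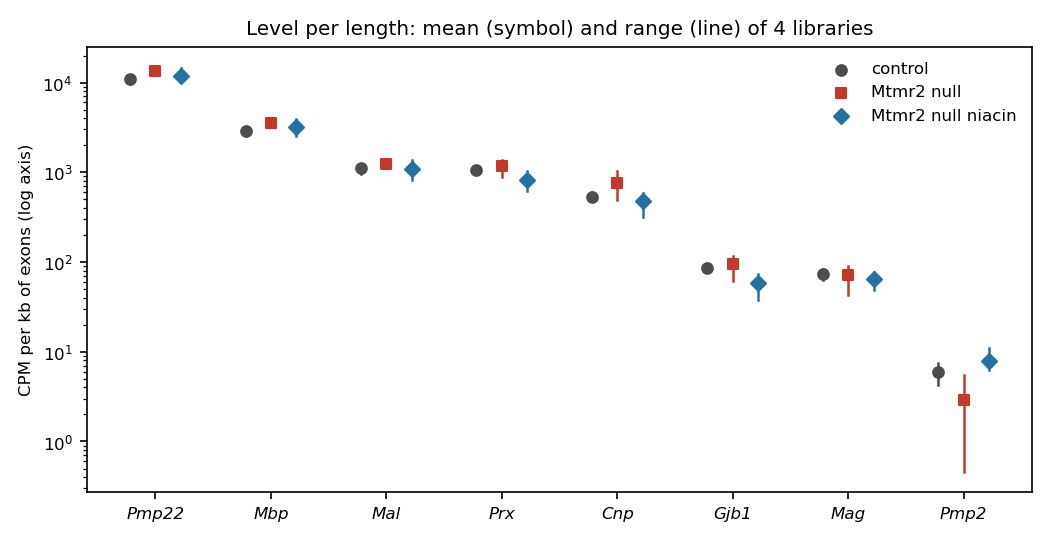
Level per kilobase of exons on a logarithmic axis for the 8 genes, ordered by control. Symbols are means and lines the range of 4 libraries in each group. *Pmp22* is at 11079 CPM per kb in control and *Pmp2* at 5.90, and the place of *Pmp2* at the end of the order is the same in all 3 groups.

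Among the genes of compact myelin, *Pmp22* (ENSMUSG00000018217, chromosome 11 of GRCm38, 63128982 to 63159547, + strand) was at 27955, 22580, 27131 and 26658 CPM in control libraries 4497 to 4500. It was at 30272, 34859, 31199 and 30150 CPM in Mtmr2 null libraries 4501 to 4504, all above the highest control. In niacin-treated libraries 4505 to 4508 it was at 33778, 28050, 26055 and 24134 CPM, from within the range of control to above 3 of the 4 Mtmr2 null libraries.

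*Mbp* (ENSMUSG00000041607, chromosome 18, 82475146 to 82585637, + strand) was at 26846, 21431, 24023 and 25173 CPM in control and at 28443, 29927, 31025 and 29722 CPM in Mtmr2 null nerves, again without overlap. It was at 33559, 27402, 24748 and 21370 CPM in niacin-treated nerves, so that this group held both the highest and the lowest value of all 12 libraries. *Mal* (ENSMUSG00000027375, chromosome 2, 127633226 to 127656695, − strand) was at 2632 to 3425 CPM in control, 3159 to 3601 in Mtmr2 null and 2263 to 3825 in niacin-treated nerves, and the 3 ranges overlapped.

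*Pmp2* (ENSMUSG00000052468, chromosome 3, 10179851 to 10183929, − strand) was the rarest, with 20 to 320 counts per library. It was at 9.89, 5.97, 6.90 and 10.5 CPM in control, at 5.99, 2.11, 0.641 and 7.79 CPM in Mtmr2 null and at 15.7, 8.93, 9.46 and 10.2 CPM in niacin-treated nerves. Every niacin library was above every Mtmr2 null library. The lowest value, 20 counts, came from 4503, the library with *Mtmr2* at the level of control, and the next lowest, 47 counts, from 4502.

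Among the genes of non-compact myelin, *Cnp* (ENSMUSG00000006782, chromosome 11, 100574904 to 100591729, + strand) was at 2177, 1797, 2000 and 1747 CPM in control. In Mtmr2 null libraries 4501 to 4504 it was at 2966, 1784, 3731 and 2666 CPM, and in niacin libraries 4505 to 4508 at 2160, 2098, 1506 and 1168 CPM. Of the Mtmr2 null libraries, 3 were above all control and niacin libraries, and 4502 was not.

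*Prx* (ENSMUSG00000053198, chromosome 7, 27499324 to 27520214, + strand) had the same order of libraries as *Cnp* within the Mtmr2 null and within the niacin group. It was at 5476 to 6618 CPM in control, at 7426, 4952, 7658 and 6490 CPM in Mtmr2 null and at 5754, 5193, 3992 and 3411 CPM in niacin-treated nerves. *Gjb1* (ENSMUSG00000047797, X chromosome, 101376378 to 101385629, + strand) was the least variable of the 8 in control, at 150, 141, 149 and 144 CPM. It was at 199, 105, 183 and 158 CPM in Mtmr2 null and at 115, 126, 93.4 and 63.7 CPM in niacin-treated nerves. All niacin libraries were below all control libraries, and the only other library below control was 4502. *Mag* (ENSMUSG00000036634, chromosome 7, 30899176 to 30914873, − strand) was at 260 to 342 CPM in control, at 351, 174, 266 and 370 CPM in Mtmr2 null and at 313, 309, 229 and 200 CPM in niacin-treated nerves, and its lowest value was again that of 4502.

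*Gjb1*, *Cnp* and *Prx*, the genes of non-compact myelin that differed most between niacin-treated and Mtmr2 null nerves, and *Pmp22*, the most abundant gene, are shown with the bases before their start sites, which were read for the letters bound by 2 factors known to drive myelin genes. For the factor SOX10 the letters were ACAAAG. The related form ACAATG was counted for the same factor. For the zinc finger factor EGR2 the letters were GTGGGNG. Each was searched on both strands in the 250 bases before the annotated starts of RefSeq on GRCm38.p6. The table held 14 start windows for 6 of the 8 genes. *Gjb1* and *Pmp22* have 4 windows each, of which the one with most matches is shown, or the one with the lowest start where none matched, and matches are in capitals. In the 4 windows printed no match overlaps another.
Gjb1, chrX:101383482-101383731, + strand: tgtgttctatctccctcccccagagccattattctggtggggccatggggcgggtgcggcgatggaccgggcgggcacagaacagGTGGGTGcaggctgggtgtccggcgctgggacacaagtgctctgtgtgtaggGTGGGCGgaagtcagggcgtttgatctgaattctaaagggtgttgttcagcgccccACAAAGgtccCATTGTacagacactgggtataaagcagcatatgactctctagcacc
Cnp, chr11:100574689-100574938, + strand: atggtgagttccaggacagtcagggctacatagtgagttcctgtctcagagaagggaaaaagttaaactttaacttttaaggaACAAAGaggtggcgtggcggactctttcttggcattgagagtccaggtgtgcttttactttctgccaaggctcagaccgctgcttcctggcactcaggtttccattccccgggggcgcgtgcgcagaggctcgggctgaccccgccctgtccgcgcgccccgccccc
Prx, chr7:27499074-27499323, + strand: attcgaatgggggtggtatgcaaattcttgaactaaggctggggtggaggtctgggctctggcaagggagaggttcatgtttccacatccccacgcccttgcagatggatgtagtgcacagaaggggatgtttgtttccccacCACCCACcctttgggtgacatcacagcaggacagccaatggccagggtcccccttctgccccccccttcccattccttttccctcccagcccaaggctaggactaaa
Pmp22, chr11:63128732-63128981, + strand: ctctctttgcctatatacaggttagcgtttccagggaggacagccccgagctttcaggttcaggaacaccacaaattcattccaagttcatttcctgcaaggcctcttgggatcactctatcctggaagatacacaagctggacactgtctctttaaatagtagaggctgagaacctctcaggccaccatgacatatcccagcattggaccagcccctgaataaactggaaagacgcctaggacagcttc

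The window of *Gjb1* holds 2 matches for each factor, with both SOX matches within a few bases of each other. That of *Cnp* holds 1 SOX match, that of *Prx* 1 EGR match, and that of *Pmp22* none. Of the 14 windows 5 held a SOX match and 3 an EGR match, where 25.2% and 28.1% of all 32817 start windows did, so letters as short as these are common. A match is a description of the letters only.

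**Figure D2:**
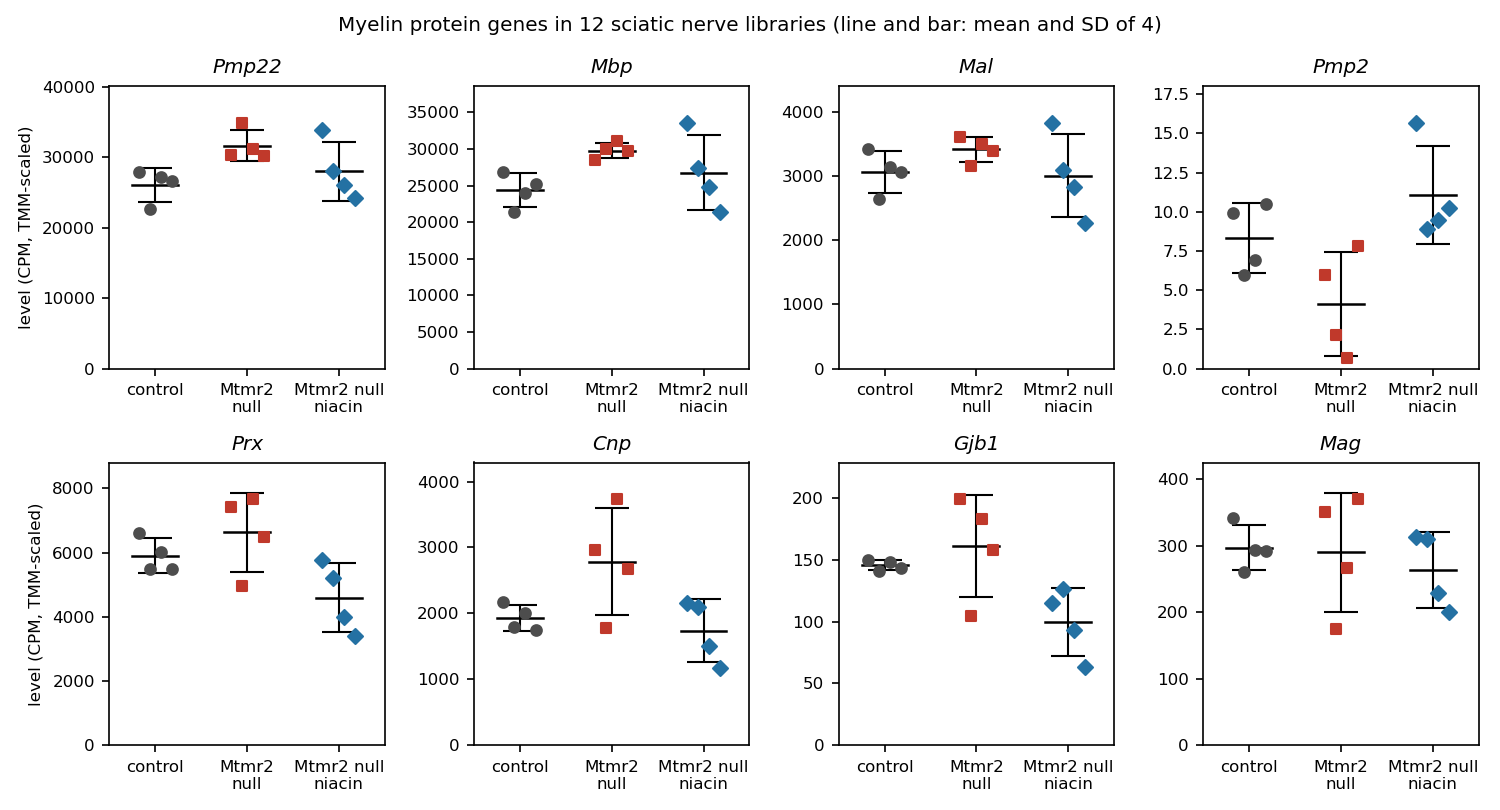
Level in CPM of each of the 8 genes in every library, with linear axes from 0. The horizontal line and bar are the mean and SD of 4 libraries. The 4 Mtmr2 null libraries lie above all control libraries for *Pmp22* and *Mbp*, and the 4 niacin libraries lie below them for *Gjb1*.

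The 8 genes differed in their spread among the Mtmr2 null nerves. The SD of the log2 level in Mtmr2 null libraries was 0.098, 0.051 and 0.082 for *Pmp22*, *Mbp* and *Mal*, and 0.496, 0.445, 0.411 and 0.287 for *Mag*, *Cnp*, *Gjb1* and *Prx*. It was largest for *Pmp2*, at 1.57. The median of all tested genes was 0.395 in this group, 0.160 in control and 0.221 in niacin-treated nerves. For tested genes at 100 CPM or more the median was 0.358, 0.115 and 0.187 in the same order. In control the SD of *Gjb1* was 0.042 and those of the other genes except *Pmp2* were 0.129 to 0.163. In niacin-treated nerves the SD of every one of the 8 genes but *Pmp22* was above the median of all tested genes, from 0.274 for *Mbp* to 0.439 for *Gjb1*. The SD of *Pmp22*, 0.208, was above the median of genes at 100 CPM or more.

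**Figure D3:**
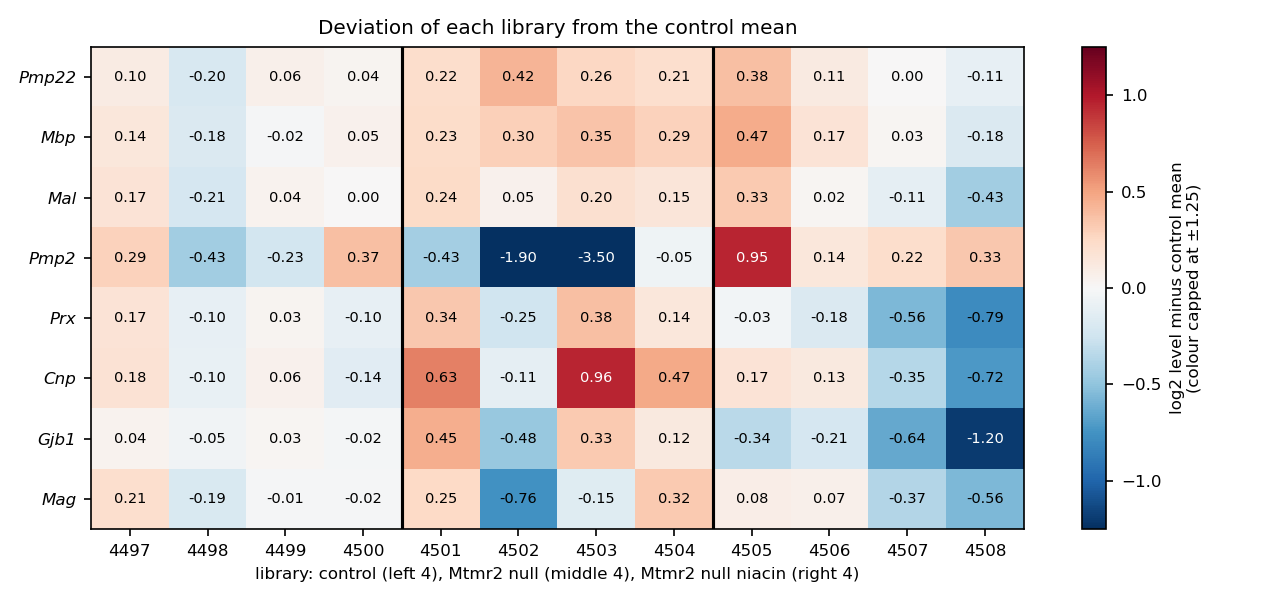
Log2 level of each gene in each library minus its mean in the 4 control libraries. Red is higher and blue lower, with the colour capped as the scale shows. The columns of 4502, 4507 and 4508 are blue for the 4 genes of non-compact myelin, at −0.76 for *Mag* in 4502 and −0.64 and −1.20 for *Gjb1* in 4507 and 4508. *Pmp22* and *Mbp* are red in all 4 Mtmr2 null columns.

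The first comparison asked whether the loss of *Mtmr2* alters the RNA of the myelin proteins. In Mtmr2 null versus control nerves, 6 of the 8 genes had a fitted difference above 0 and 2 below, with a median log2 fold change of 0.16, against 0.03 over all genes tested. None of the 8 was called, where 0.267% of all genes were. The largest differences above 0 were those of *Cnp*, whose log2 fold change was 0.53 (SE 0.25, 95% interval 0.0034 to 1.06, adjusted p = 0.287 by edgeR), *Mbp* with 0.29 (SE 0.22, interval −0.17 to 0.75, adjusted p = 0.511 by edgeR) and *Pmp22* with 0.28 (SE 0.21, interval −0.18 to 0.73, adjusted p = 0.520 by edgeR). *Cnp* was the one gene with an unadjusted p under 0.05, where 17.2% of all genes had one. Its highest level was in 4503, the library with *Mtmr2* at the level of control. The log2 fold change of *Cnp* was 0.36 (SE 0.24, adjusted p = 0.4385 by edgeR) without 4503 and 0.69 (SE 0.22, adjusted p = 0.1544 by edgeR) without 4502. The groups did not overlap for 2 of the 8 genes, *Pmp22* and *Mbp*, both higher in Mtmr2 null, where 9.32% of all genes had groups that did not overlap. For both the exact permutation p was 0.0286, two-sided, the smallest that 4 against 4 libraries can give. Over the 24 exact tests of 8 genes in 3 comparisons, 4 reached this value, and none was under 0.171 after Benjamini-Hochberg adjustment.

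*Pmp2* had the largest difference in size, and its log2 fold change was −1.02 (SE 0.51, interval −2.12 to 0.08, adjusted p = 0.323 by edgeR). It was −0.27 when both 4502 and 4503 were left out, a step added after seeing the data, and −0.65 without 4503 alone. *Mal*, *Prx* and *Gjb1* were at 0.16, 0.17 and 0.15, and *Mag* at −0.03, with intervals that reached from −0.51 to 0.63. The upper ends correspond to ratios of 1.36 for *Mag*, 1.52 for *Gjb1* and 1.55 for *Prx*, and the intervals do not show that the levels were equal.

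The second comparison asked what niacin changes in Mtmr2 null nerves. It shares the Mtmr2 null libraries with the first, so the values of these libraries enter both, with opposite sign. Of the 8 genes, 7 had a fitted difference below 0 and *Pmp2* one above, with a median log2 fold change of −0.18, against −0.04 over all genes tested. None of the 8 was called, where 1.43% of all genes were. The 3 largest differences below 0 were in genes of non-compact myelin. The log2 fold change was −0.70 for *Gjb1* (SE 0.22, interval −1.16 to −0.23, adjusted p = 0.108 by edgeR), −0.69 for *Cnp* (SE 0.25, interval −1.21 to −0.16, adjusted p = 0.148 by edgeR) and −0.53 for *Prx* (SE 0.22, interval −1.0 to −0.07, adjusted p = 0.193 by edgeR). For *Pmp2* the log2 fold change was 1.43 (SE 0.51, interval 0.33 to 2.54, adjusted p = 0.150 by edgeR), and it was 0.68 without 4502 and 4503. These 4 genes had an unadjusted p under 0.05, where 20.1% of all genes had one. *Pmp2* was also the only one of the 8 with groups that did not overlap, where 7.01% of all genes had this, with an exact permutation p of 0.0286. *Mag*, *Mbp*, *Pmp22* and *Mal* were between −0.18 and −0.14.

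Whether these 3 genes were called differed with the method and with the libraries in the fit. Without 4502, edgeR called *Gjb1*, *Cnp* and *Prx* lower at log2 fold changes of −0.87, −0.86 and −0.66 (adjusted p = 0.00958, 0.0164 and 0.0318), where 23.6% of all genes were called. Limma-voom with sample quality weights, which gives less weight to libraries that vary more, called the same 3 genes with all libraries in the fit (adjusted p = 0.0208, 0.0327 and 0.0405), where 11.6% of all genes were called. DESeq2 over all libraries called *Gjb1* alone (adjusted p = 0.0382), where 7.02% of all genes were called. Without both 4502 and 4503, edgeR called *Gjb1* and *Cnp* (adjusted p = 0.0210 and 0.0488), where 12.5% of all genes were called. In the same comparison every other setting called none of the 8 genes. With only the libraries of the 2 groups, the adjusted p of *Gjb1* was 0.145 by DESeq2 and 0.29 by edgeR. It was 0.107 by edgeR with GC correction. Without 4503 alone, edgeR gave *Gjb1*, *Cnp* and *Prx* log2 fold changes of −0.63, −0.51 and −0.45 (adjusted p = 0.252, 0.379 and 0.401). No setting called any of the 8 genes higher, and none called *Pmp22*, *Mbp*, *Mal*, *Mag* or *Pmp2*. In Mtmr2 null versus control, limma-voom called none of the 8 either, where 0.626% of all genes were called.

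The third comparison set niacin-treated Mtmr2 null nerves against control and shares libraries with both others. Of the 8 genes, 3 were above 0 and 5 below, with a median log2 fold change of −0.09, against 0.02 over all genes tested. None was called by edgeR, where 0% of all genes were, although 24.7% of all genes, and *Gjb1* among the 8, had an unadjusted p under 0.05. DESeq2 over all libraries called 1246 genes, none of them among the 8. *Gjb1* was at 99.7 ± 27.6 CPM in niacin-treated and 146 ± 4.28 CPM in control nerves (SD, n = 4 each), and its log2 fold change was −0.55 (SE 0.22, interval −1.01 to −0.09, adjusted p = 0.159 by edgeR) with an exact permutation p of 0.0286. It was the 1 gene of the 8 whose groups did not overlap, where 31.4% of all genes had this. *Prx* had a log2 fold change of −0.36 (interval −0.83 to 0.10, adjusted p = 0.294 by edgeR) and *Pmp2* of 0.41 (interval −0.66 to 1.48, adjusted p = 0.618 by edgeR). The other 5 were between −0.18 and 0.14, with intervals from −0.68 to 0.60.

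The count of calls in this comparison also differed with the method and with the libraries in the fit. With only the niacin and control libraries, edgeR called *Gjb1* lower (adjusted p = 0.0260), 1 of the 8 genes where 33.9% of all genes were called. DESeq2 on these libraries also called *Gjb1* alone (adjusted p = 0.00799), where 36.6% of all genes were called. Limma-voom with quality weights called *Gjb1* and *Prx* lower (adjusted p = 0.00230 and 0.0105), where 42.4% of all genes were called. Without 4502, edgeR called *Gjb1* (adjusted p = 0.0372) where 21.6% of all genes were called, and without both 4502 and 4503 it called *Gjb1* (adjusted p = 0.0267) where 29.6% of all genes were called. The 8 genes are too few to read a difference from these shares.

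**Figure D4:**
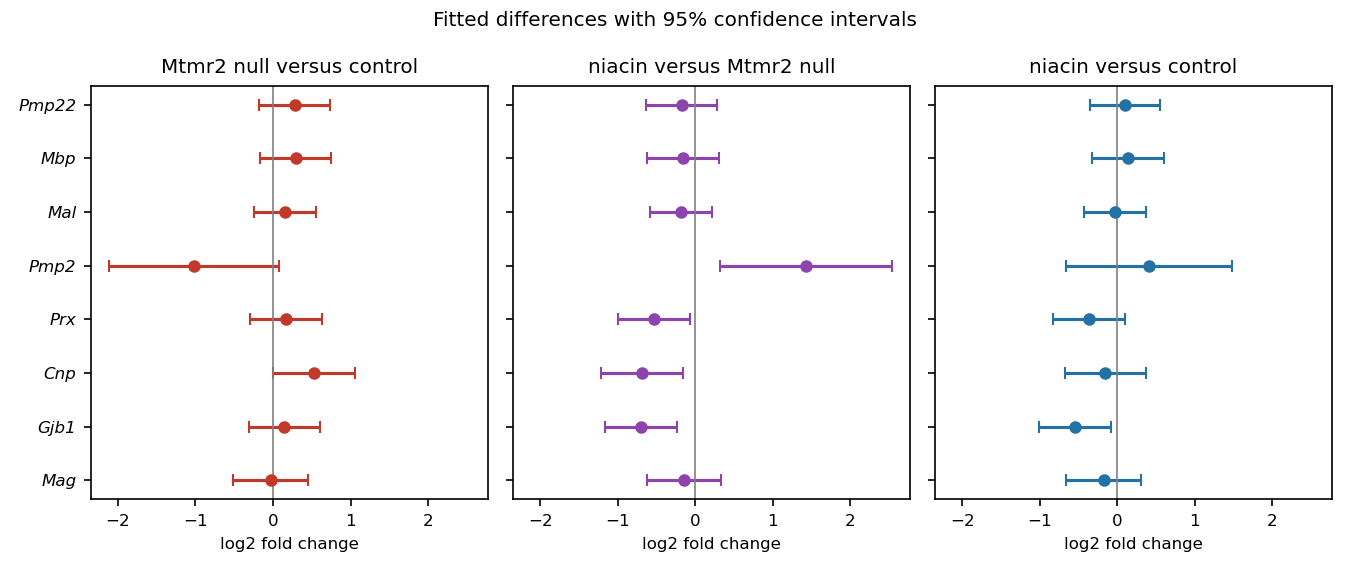
Log2 fold change of the 8 genes in the 3 comparisons, from the edgeR fit over 12 libraries. Bars are 95% confidence intervals and the vertical line marks no difference. In niacin versus Mtmr2 null the intervals of *Gjb1*, *Cnp*, *Prx* and *Pmp2* exclude 0, at −0.70, −0.69, −0.53 and 1.43, and none of these passed the adjustment over all genes.

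The 8 genes differ in base composition, and the level of GC-rich genes differed between libraries. The GC content of the longest transcript is 57.7% for *Prx*, 57.6% for *Mag*, 56.7% for *Gjb1* and 54.8% for *Cnp*, above 90.0%, 89.8%, 86.4% and 77.6% of the tested genes. It is 51.0% for *Mbp*, 48.9% for *Mal*, 48.6% for *Pmp22* and 43.4% for *Pmp2*. The 4 genes of non-compact myelin are thus the 4 richest in GC, and all 4 were below their control mean in 4502, 4507 and 4508. In 4505 and 4506, in which GC-rich genes were also low, at −0.61 and −0.35 on the scale given above, *Mag* was above its control mean by 0.08 and 0.07 and *Cnp* by 0.17 and 0.13, while *Prx* and *Gjb1* were below theirs. With each library corrected for GC content, a step added after seeing the data, the log2 fold change in niacin versus control was −0.34 for *Gjb1*, −0.12 for *Prx*, −0.01 for *Cnp* and 0.07 for *Mag*. In niacin versus Mtmr2 null it was −0.56 for *Gjb1*, −0.59 for *Cnp*, −0.39 for *Prx* and 0.01 for *Mag*. The corrected values of *Mag* have the opposite sign to those without correction. With transcript length corrected as well, *Prx* and *Cnp* also changed sign in niacin versus control, to 0.06 and 0.04, and *Gjb1* was at −0.46. Since all 4 niacin libraries have low levels of GC-rich genes, this cannot be told apart from the treatment.

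**Figure D5:**
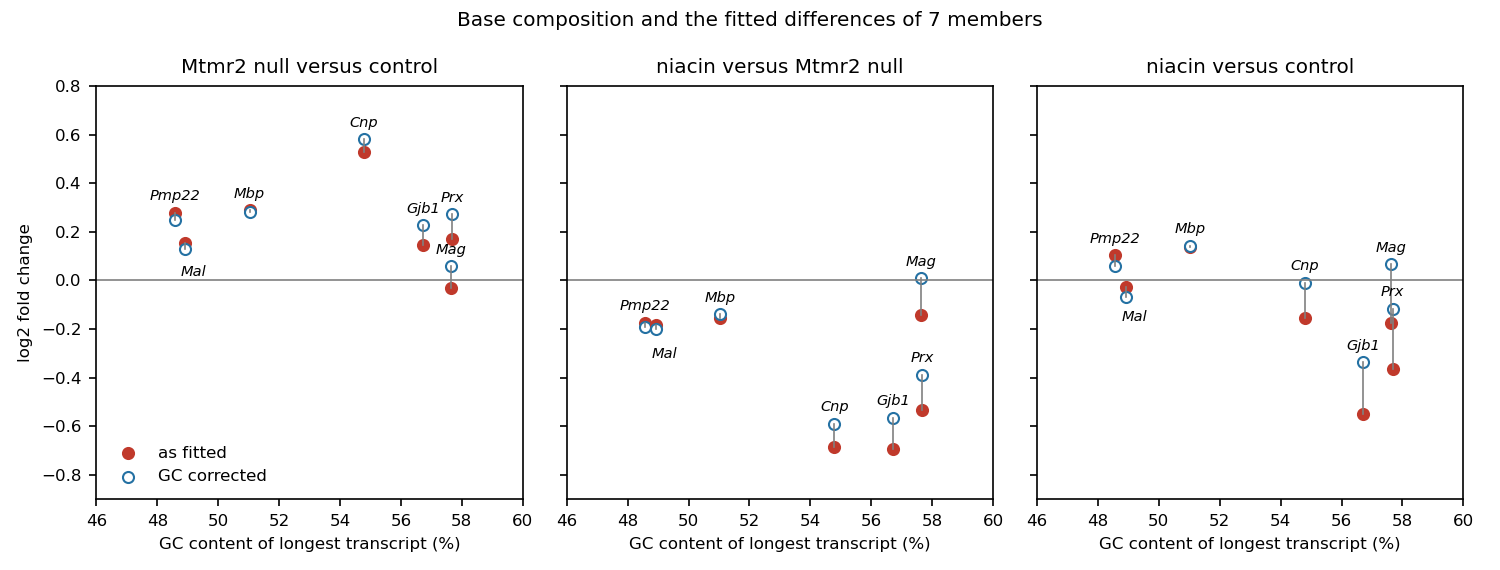
Fitted log2 fold change against the GC content of the longest transcript for 7 of the genes, without *Pmp2*, whose differences are outside the axis. Filled points are as fitted and open points are with each library corrected for GC content. *Gjb1* in niacin versus control moves from −0.55 to −0.34 and *Prx* from −0.36 to −0.12, while *Mbp* stays at 0.14.

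The myelin genes were also set against 7 genes of all Schwann cells, since whole nerve RNA holds many cell types. In bulk RNA fewer Schwann cells and less RNA per cell cannot be told apart. The mean log2 level of the pan-Schwann cell genes was 8.48 ± 0.067 in control, 8.76 ± 0.055 in Mtmr2 null and 8.37 ± 0.138 in niacin-treated nerves (SD, n = 4 each). It was thus higher by 0.29 in Mtmr2 null than in control. Relative to this mean, *Pmp22* and *Mbp* differed by −0.01 and 0.01 between Mtmr2 null and control, and their groups overlapped. Relative to it, *Gjb1* differed by −0.50 on the log2 scale between niacin-treated nerves and control, without overlap of the groups, and *Pmp2* was higher by 2.27 in niacin-treated than in Mtmr2 null nerves, also without overlap. For the other genes the groups overlapped in every comparison. In CPM, groups did not overlap for 31.4% of all genes in niacin versus control and for 7.01% in niacin versus Mtmr2 null. No share of all genes is given for levels relative to the pan-Schwann cell mean, so these separations cannot be read as particular to *Gjb1* and *Pmp2*.

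Across the 12 libraries some of the genes varied together. These correlations are given as descriptions, since the libraries share group, depth and base composition. *Pmp22* and *Mbp* had a Pearson r of 0.94 (Spearman 0.94), *Mbp* and *Mal* of 0.88 (Spearman 0.85), *Prx* and *Gjb1* of 0.96 (Spearman 0.94) and *Prx* and *Cnp* of 0.93 (Spearman 0.91), in log2 level. Between genes of compact and non-compact myelin r was high for *Mal*, at 0.81 with *Prx*, 0.80 with *Cnp* and 0.70 with *Gjb1*, and low for *Pmp22*, at 0.27 with *Gjb1* and 0.09 with *Mag*. Without 4502 the values of *Pmp22* were 0.45 and 0.61. Among the genes of non-compact myelin *Mag* had an r of 0.60 with *Cnp* and 0.69 with *Prx*, so these values do not divide the genes by the kind of myelin. With group means removed, *Prx* and *Cnp* had an r of 0.97, *Cnp* and *Gjb1* of 0.93 and *Pmp22* and *Mbp* of 0.91. *Pmp2* followed none of the others, with an r of −0.53 to 0.32. Of 9716 genes at 10 CPM or more, the 5 closest to the mean standardized level of the 8 genes over 12 libraries were *Tmed10*, a cargo receptor of the early secretory pathway (r = 0.93), *Gnai1*, an inhibitory G protein subunit (r = 0.92), *Saraf*, a regulator of store-operated calcium entry (r = 0.92), *Mapk3*, the kinase ERK1 (r = 0.92), and *Cep120*, a centriole protein (r = 0.92). With this mean, which holds them, the 8 genes themselves had an r of −0.13 for *Pmp2* and of 0.66 for *Pmp22* to 0.96 for *Mal* for the others. Closeness to the mean is thus not closeness to each of the 8.

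From a list of 23 further genes of myelin and its adhesion complexes, none was called by edgeR in any comparison, and 6, 9 and 8 had an unadjusted p under 0.05 in Mtmr2 null versus control, niacin versus Mtmr2 null and niacin versus control, where 17.2%, 20.1% and 24.7% of all genes had one. DESeq2 over all libraries called 5, 6 and 4 of them, where it called 718, 1211 and 1246 of all genes. Their median log2 fold change was 0.02, −0.33 and −0.18. *Drp2* and *Ncmap*, both among the most abundant of them, were higher in every Mtmr2 null library than in any control library. *Drp2*, which ties periaxin to dystroglycan, was at 2335 to 2756 CPM in control and 3558 to 8109 CPM in Mtmr2 null nerves (log2 fold change 1.02, SE 0.25, adjusted p = 0.0936 by edgeR). *Ncmap*, a membrane protein of non-compact myelin, was at 1186 to 1274 against 1799 to 3070 CPM (0.93, SE 0.20, adjusted p = 0.0647 by edgeR). Against Mtmr2 null, niacin-treated nerves had log2 fold changes of −0.87 and −0.77 for *Drp2* and *Ncmap*, and against control of 0.15 and 0.17.

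In the other direction *Tspan2*, a tetraspanin, was at 11.9 to 16.1 CPM in control and 7.88 to 9.58 CPM in Mtmr2 null nerves (log2 fold change −0.61, SE 0.18, adjusted p = 0.118 by edgeR). *Dag1*, which encodes dystroglycan, was at 996 to 1494 CPM in control, 366 to 1236 in Mtmr2 null and 330 to 747 in niacin-treated nerves. All niacin libraries were below control for *Dag1*, whose log2 fold change in niacin versus control was −1.14 (SE 0.33, adjusted p = 0.0995 by edgeR). *Prx*, *Drp2* and *Dag1*, whose proteins form 1 complex, had log2 fold changes of 0.17, 1.02 and −0.44 in Mtmr2 null versus control. The groups overlapped for *Prx* (adjusted p = 0.716 by edgeR) and for *Dag1* (SE 0.33, interval −1.14 to 0.26, adjusted p = 0.505 by edgeR). Over the 23 genes, groups did not overlap for 5 higher and 1 lower in this comparison, for 2 lower in niacin versus Mtmr2 null and for 4 higher and 7 lower in niacin versus control, where 9.32%, 7.01% and 31.4% of all genes had groups that did not overlap.

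Some annotated genes lie on the exons of these 8. *Dnajc7*, a chaperone gene on the opposite strand, overlaps exons of *Cnp*, and its level was 117 to 131 CPM in control, 129 to 237 in Mtmr2 null and 111 to 147 in niacin-treated nerves. *Gm15541* overlaps *Prx* on the opposite strand at 3.77 to 21.7 CPM, and *Gm37389* overlaps *Pmp2* on the same strand and had no count in any library. No source used here states whether reads were assigned by strand, so reads of the pairs on opposite strands may not be told apart.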

How the data were processed

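Sciatic nerve RNA was selected for polyA tails and sequenced in pairs on an Illumina HiSeq. Per the labels, CASAVA 1.9, STAR and DESeq2 were used and reads were mapped to GRCm38. No source used here states the STAR version, the counting program or the strand handling. The authors deposited raw counts per Ensembl gene for 12 libraries, and tables of their own DESeq2 comparisons, of which only the gene symbols were used here. All count columns were used. Members were matched by symbol, and coordinates and exons came from GENCODE M21.

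Counts were fitted in R 4.3.3 with edgeR 4.0.16 (filterByExpr, TMM, 1 quasi-likelihood model of 12 libraries without covariates, two-sided tests, call at an adjusted p under 0.05), after a test on simulated data. Log2 levels used a prior count of 2. SE is the log2 fold change divided by the square root of F. For single levels, libraries of both groups were exchanged in all 70 ways (exact permutation test). Replicates are separate mice. The members and lists were chosen with earlier results of these data known. The text names all members, *Mtmr2*, the 3 most abundant and the 2 most changed in each direction of 23 other myelin genes, and the 5 genes closest to the mean of the members. 1 gene that this rule names is not reported here. At most 2 genes of a marker list were named, and *Dnajc7*, *Gm15541* and *Gm37389* for their position, chosen after their values were seen. Library totals were 20763951 to 33191106 counts. *Pmp2* had as few as 20 counts, in 4503, the library with the highest total, and had 162 in 4504, the library with the lowest. Alternatives were DESeq2 1.42.0, limma 3.58.1 (voom with quality weights), other scalings, filters and samples, a covariate for *Xist*, leaving out single libraries, and corrections for GC content and length by splines with 5 degrees of freedom.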

Additional observations from a re-analysis of the deposited data

How the results depend on the processing

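Of 600 log2 fold changes of the 8 myelin genes under alternatives, 569 kept their sign and their side of the threshold, 15 passed it in addition and 16 changed sign, all of them of genes that were not called. *Mag* in Mtmr2 null versus control turned from −0.03 to 0.16 with limma-voom, 0.058 with GC correction, 0.090 with GC and length correction and 0.28 without 4502 and 4503, and ranged from −0.18 to 0.15 with 1 library left out. *Mag* was at 0.0092 in niacin versus Mtmr2 null with GC correction, and at 0.067 and 0.088 in niacin versus control with GC correction and with GC and length correction. With GC and length correction *Prx*, *Cnp* and *Pmp22* in niacin versus control were at 0.063, 0.040 and −0.041. With 1 library left out, *Pmp22* in niacin versus control ranged from −0.0049 to 0.17 and *Mal* from −0.17 to 0.083. The corrections and the joint removals of libraries were chosen after seeing the data. The cause of these changes was not tested.

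Of the 8 genes, DESeq2 over all libraries called 1, limma-voom 3 and edgeR without 4502 and 4503 2 in niacin versus Mtmr2 null, and 0 to 3 with 1 library left out, the 3 being without 4502. In niacin versus control, DESeq2 and edgeR on 2 groups each called 1, limma-voom 2, edgeR without 4502 and 4503 1, and 0 to 1 with 1 library left out. Here the shares of all genes called were 36.6% with DESeq2 and 33.9% with edgeR on 2 groups and 42.4% with limma-voom. They were 29.6% without 4502 and 4503 and 21.6% without 4502. With the library total as the only scaling, 2 genes had an exact p under 0.05 in niacin versus control, in place of 1.

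Counts over all genes were less stable. In Mtmr2 null versus control (46) they were 718 with DESeq2 over all libraries, 445 on 2 groups, 108 with limma-voom, 0 with edgeR on 2 groups, 341 with no filter, 12 with *Xist* as covariate, 101 with GC correction, 185 with GC and length correction, 11 without 4502 and 4503, 6 without 4506 and 4507, and 0 to 457 with 1 library left out, highest without 4501. In niacin versus Mtmr2 null (246) they were, with the same settings, 1211, 435, 2007, 0, 573 and 50, then 494 with GC and length correction, 2223 without 4502 and 4503, 0 without 4506 and 4507, and 0 to 4180 with 1 library left out, highest without 4502. In niacin versus control (0) they were 1246, 6033, 7311, 5586 and 311 with the first 5 settings, 5263 without 4502 and 4503, and 0 to 3826 with 1 library left out, highest without 4502.

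Of the 23 other myelin genes, in Mtmr2 null versus control DESeq2 called 5 over all libraries and 4 on 2 groups, GC correction 1, GC and length correction 2, and 0 to 3 with 1 library left out. Over all genes these settings called 718, 445, 101, 185 and 0 to 457. In niacin versus Mtmr2 null the counts among the 23 were 6 and 2 with DESeq2, 5 with limma-voom, 1 with no filter, 1 with GC and length correction, 5 without 4502 and 4503, and 0 to 9 with 1 library left out. The share of all genes called was 7.02% with DESeq2 over all libraries and 11.6% with limma-voom. It was 12.5% without 4502 and 4503 and 23.6% without 4502. In niacin versus control the counts among the 23 were 4 and 11 with DESeq2, 13 with limma-voom, 11 with edgeR on 2 groups, 1 with no filter, 10 without 4502 and 4503, and 0 to 8 with 1 library left out. The share of all genes called was 36.6% with DESeq2 on 2 groups, 42.4% with limma-voom and 33.9% with edgeR on 2 groups. It was 29.6% without 4502 and 4503 and 21.6% without 4502. No paired analysis was possible because the groups share no replicate number. *Pmp2* had the fewest counts of the 8, at 20 in its lowest library, 4503, which had the highest total of all libraries.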
